A study of Drosophila melanogaster with 15 samples.

Results

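The transcriptional response of control fruit flies to 1000 Gy of ionizing radiation was described across genes, from the 7 control arrays of a series of 15. Expression was measured on Affymetrix 3' arrays of Drosophila melanogaster, with 1 array per pool of whole bodies of 25 males, 3 days old as adults. The untreated control (genotype Control, 0 Gy) gave 4 arrays and the irradiated control (genotype Control, 1000 Gy) gave 3, all labelled as biological replicates. The remaining 8 arrays, 4 untreated and 4 after 1000 Gy, came from 4 transgenic lines that express Dsup, a tardigrade protein that binds nucleosomes. They entered the shared normalization, the shared estimate of the spread and 1 comparison of responses. The Control genotype is not described further in the labels, the flies were raised at 25 °C on cornmeal-molasses medium with antibiotic, and the time between irradiation and RNA isolation is not given in the sources used here. Because each sample is a pool of whole flies, fewer cells of a type and less RNA per cell cannot be told apart, and individual flies were not resolved.

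Ionizing radiation breaks DNA strands and produces reactive oxygen species. In Drosophila the kinases tefu (ATM) and mei-41 (ATR) signal the breaks, and the transcription factor p53 induces genes of repair and cell death. Broken ends are joined directly through the Ku complex and DNA ligase 4, or are resected, coated by replication protein A (RPA) and repaired by recombination. Electrophiles and peroxides are met by glutathione S-transferases, cytochrome P450 enzymes, UDP-glycosyltransferases and efflux transporters, many of them under the Nrf2 factor cnc. Most cells of an adult fly no longer divide; the exceptions include stem cells of the gut and the germ line.

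The deposited values are log2 probe set levels. They were quantile-normalized over all 15 arrays, and all levels and differences here are on that log2 scale, where a difference of 1 is a 2-fold change. A gene is represented by its brightest probe set that carries exactly 1 gene symbol, and it is called when its limma p-value, adjusted by Benjamini-Hochberg over all 18769 probe sets, lies below 0.05. An array level depends on the probe as well as on the transcript, so levels are compared between samples and not between genes.

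Of 11982 genes, 4350 were called, which is 36.3% of them. They split into 2220 higher and 2130 lower after irradiation, 18.5% and 17.8% of all genes. The change reached 2-fold in 630 called genes (5.26%), of which 348 were higher and 282 lower. In 5889 genes (49.1%) the 3 irradiated and the 4 untreated values did not overlap, and 4201 of the called genes were among these. The median change over all genes was 0.00, with the 10th percentile at -0.51 and the 90th at 0.53. Quantile normalization gives every array the same distribution, so this median and the near-even split of calls largely follow from it. On the deposited values 7862 probe sets were higher and 1435 lower. Counts in the gene lists below stand against 36.3% of all genes called, 18.5% higher and 17.8% lower. Calls were spread evenly over the range of levels. Genes up to the 40th percentile of level had 36.2% called, those from the 40th to the 70th 37.2%, those from the 70th to the 90th 35.4%, and the brightest 35.9%.

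**Figure D1:**
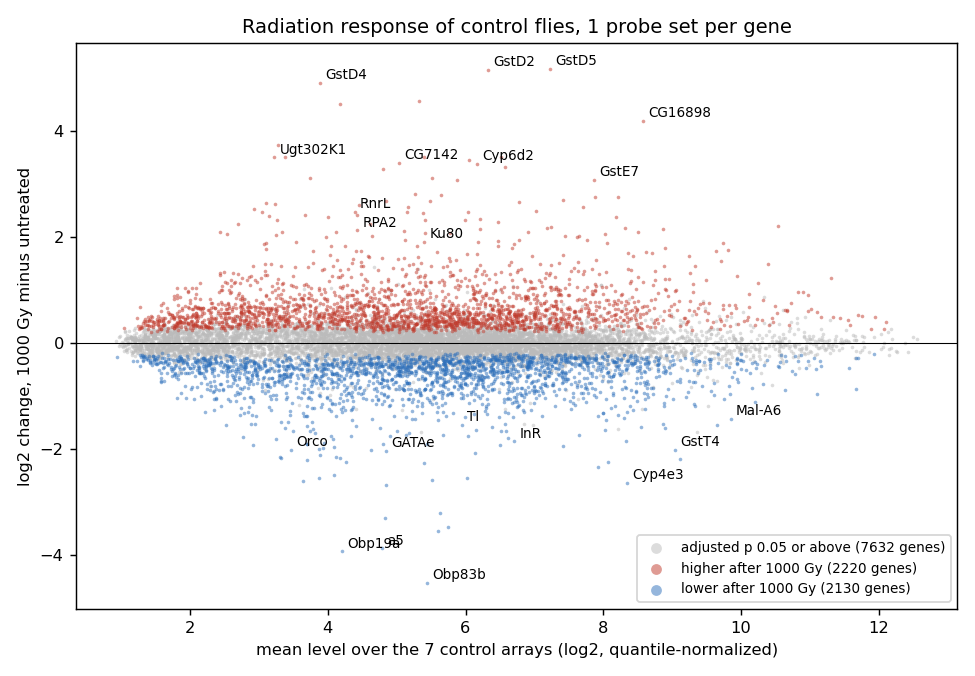
Each point is a gene, placed by its mean level over the 7 control arrays (log2) and its change with 1000 Gy (log2). Red marks the 2220 genes called higher, blue the 2130 called lower and grey the 7632 not called; GstD5, GstD2 and GstD4 stand highest and Obp83b lowest.

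Several features of the arrays bear on every value. The deposited means were nearly equal within a group but differed between groups, and without the quantile step the median of all genes lay at 0.27. Pairs of irradiated control arrays shared 36.0% to 40.9% of their deposited values exactly, while pairs within other groups shared at most 1.10%. The median SD between irradiated controls was 0.048, against 0.154 between untreated controls, and the shared standard errors may be too small. When the 3 irradiated arrays were averaged and entered as 1 sample, a fit chosen after this was seen, 9.81% of genes were called. The 3' minus 5' difference of the actin and GAPDH control probe sets, which grows as RNA is degraded, was 0.774 to 1.24 in untreated and 1.34 to 1.51 in irradiated controls, and with it as a covariate 9.58% of genes were called. The hybridization controls, spiked into each sample, split the arrays into untreated 1 and 2 with irradiated 1 and 2 on a lower level and untreated 3 and 4 with irradiated 3 on a higher one. With this split as a block, a fit also chosen after it was seen, 36.8% of genes were called. Counts with the covariate and with the averaged arrays stand beside most gene groups below, and where a named gene lost its call in either fit this is stated. The 3' minus 5' difference did not overlap between the groups, so the covariate and irradiation can hardly be told apart. A lost call is therefore not always a smaller change. With the covariate the rise of Ugt37A3 went from 3.45 to 4.13, while the fall of Cyp4e3 went from 2.65 to 1.74. Averaging leaves the size of each change as it was. The part of RNA quality in the changes was not tested beyond the fit with the covariate. Untreated control 4 stood apart in the 3' probe set of 18S ribosomal RNA, at 3.11 above its array's median against 6.90 to 8.18 on the other 14 arrays, and without it 34.8% of genes were called.

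Targets of the DNA damage response rose strongly. Of the 8 measured genes listed as p53 and its radiation targets, 7 were called higher and 1 lower (36.3% of all genes were called), with a median change of 1.45. RnrL, the large subunit of ribonucleotide reductase, which supplies deoxynucleotides, stood at 3.85, 2.67, 3.43 and 3.36 on the untreated arrays and 5.77, 5.87 and 5.77 on the irradiated arrays. All irradiated values lay above the untreated ones, and the mean rose 5.55-fold, or 2.47 ± 0.27 (SE, adjusted p = 1.43e-05) on the log2 scale. Irbp, the Drosophila Ku70, was measured at 4.16, 4.30, 3.94 and 4.43 on the untreated arrays and 6.25, 6.44 and 6.26 on the irradiated arrays, a rise of 2.11 ± 0.29 (SE, adjusted p = 8.29e-05). Its partner Ku80 was at 4.58, 4.38, 4.40 and 4.98 on the untreated arrays and 6.46, 6.57 and 6.45 on the irradiated arrays and rose by 1.91 ± 0.23 (SE, adjusted p = 3.03e-05). Irbp18, a bZIP factor that binds the ends of P elements, rose by 1.37 ± 0.18 (SE, adjusted p = 6.33e-05), and Corp, a negative regulator of p53 in the fly, by 1.52 ± 0.16 (SE, adjusted p = 8.59e-06). The gene p53 itself went from 5.44, 5.47, 5.41 and 5.62 to 6.37, 6.34 and 6.36, a rise of 0.87 ± 0.13 (SE, adjusted p = 0.000197). The proapoptotic gene skl moved the other way and fell by 0.56 ± 0.12 (SE, adjusted p = 0.0022). With the covariate 5 of the 8 were called, all higher, and with the averaged arrays 6, all higher. The calls of p53 with the covariate and of skl in both fits were lost.

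Upstream of p53 changes were small. Of 14 sensors and checkpoint kinases 5 were called higher and 1 lower, with a median of 0.10, and none reached 2-fold. That is 42.9% called, near the 36.3% of all genes. The largest rise was that of nbs, a subunit of the complex that binds broken ends, by 0.72 ± 0.16 (SE, adjusted p = 0.0035). Claspin, an adaptor of the checkpoint kinase, rose by 0.66 ± 0.11 (SE, adjusted p = 0.00047). The count of 5 dropped to 3 without untreated control 2 and without irradiated control 2. It was 0 with the covariate and 1 with the averaged arrays, in which nbs lost its call. Of 11 core apoptosis genes 3 were called higher and 2 lower, a share near that of all genes, and the 3 were 1 without untreated control 2 or 4 and without irradiated control 1 or 2. The caspase Strica rose by 0.64 ± 0.12 (SE, adjusted p = 0.000818), a call that was lost with the covariate, in which 1 gene of the list was called, as with the averaged arrays.

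Among genes that act on double-strand breaks and on single-stranded DNA, some rose. Of 5 end joining genes 3 were called, all higher. They were Irbp, Ku80 and the ligase DNAlig4, which rose by 0.94 ± 0.17 (SE, adjusted p = 0.000827). PolQ, the polymerase of an alternative end joining route, was at 0.14 ± 0.14 (SE, adjusted p = 0.489) and its groups overlapped. All 3 called genes of the 6 measured for homologous recombination were the subunits of RPA, the single-stranded DNA binding complex that also serves replication and excision repair. RPA2 stood at 3.53, 3.44, 3.44 and 3.68 on the untreated arrays and 5.63, 5.66 and 5.64 on the irradiated arrays and rose 4.35-fold, or 2.12 ± 0.20 (SE, adjusted p = 4.32e-06) on the log2 scale. RPA1 was at 6.51, 6.34, 6.30 and 6.60 on the untreated arrays and 7.72, 8.14 and 7.93 on the irradiated arrays, a rise of 1.49 ± 0.19 (SE, adjusted p = 4.72e-05). RPA3, the smallest subunit, rose by 1.07 ± 0.10 (SE, adjusted p = 4.46e-06). All 3 subunits kept their calls with the covariate and with the averaged arrays. The other measured genes of that list did not pass. The helicase Blm was at 0.29 ± 0.27 (SE, adjusted p = 0.429) and the recombination motor okr (Rad54) at 0.05 ± 0.14 (SE, adjusted p = 0.82), and in both the groups overlapped. DNAlig4 lost its call with the covariate.

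Excision and bypass repair changed in single genes. Of 7 nucleotide excision repair genes 4 were called, all higher. Ercc1, the partner of the structure-specific nuclease mei-9, was at 4.02, 3.60, 3.56 and 3.63 on the untreated arrays and 5.06, 5.15 and 5.08 on the irradiated arrays and rose by 1.40 ± 0.13 (SE, adjusted p = 4.46e-06). The damage recognition gene pic (DDB1) rose by 0.70 ± 0.10 (SE, adjusted p = 0.000102). In base excision and single-strand break repair 3 of 8 genes were higher and 1 lower. XRCC1, a scaffold at single-strand breaks, rose by 0.99 ± 0.13 (SE, adjusted p = 6.43e-05) and DNAlig1, the replicative ligase, by 0.70 ± 0.11 (SE, adjusted p = 0.000355). Tdg, a thymine DNA glycosylase, stood at 7.05, 7.11, 7.07 and 6.84 on the untreated arrays and 5.93, 5.99 and 5.93 on the irradiated arrays and fell by 1.07 ± 0.14 (SE, adjusted p = 6.7e-05). Probe sets that carry the symbols of both Tdg and lncRNA:CR43958 did not follow, at -0.21 (adjusted p = 0.808) and 0.47 (adjusted p = 0.183). Of 9 genes of crosslink repair and translesion synthesis 3 were higher and 2 lower. PolZ1, the catalytic subunit of the mutagenic polymerase zeta, rose by 0.96 ± 0.18 (SE, adjusted p = 0.000754), and the nuclease gene mus81 fell by 0.52 ± 0.07 (SE, adjusted p = 9.59e-05). With the covariate the counts in these 3 lists were 2 higher, then 2 higher and 1 lower, then 1 lower, and PolZ1 lost its call. With the averaged arrays they were 2 higher, then 2 higher and 1 lower, then 1 higher and 1 lower.

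Some genes of DNA replication rose. Of 17 measured genes of origin licensing and the replicative helicase, 8 were called higher and none lower, with a median of 0.27. Orc1, the subunit of the origin recognition complex whose level varies in the cell cycle, was at 2.06, 1.76, 1.71 and 1.97 on the untreated arrays and 3.24, 3.23 and 3.08 on the irradiated arrays and rose by 1.31 ± 0.14 (SE, adjusted p = 1.1e-05). The helicase subunit Mcm2 rose by 0.94 ± 0.09 (SE, adjusted p = 5.33e-06), Mcm3 by 0.89 ± 0.09 (SE, adjusted p = 6.35e-06) and the helicase activator Mcm10 by 0.64 ± 0.15 (SE, adjusted p = 0.00348). Without irradiated control 1 or 3 the count was 5, and with the covariate or the averaged arrays 3, where Mcm10 was not called. Of 12 genes of nucleotide synthesis 4 were higher and 2 lower. The 4 were RnrL, the deoxynucleoside kinase dnk (1.34 ± 0.19 SE, adjusted p = 9.79e-05), the thymidylate synthase Ts (0.89 ± 0.10 SE, adjusted p = 2.56e-05) and dUTPase (0.77 ± 0.18 SE, adjusted p = 0.00453), all of which serve the supply of deoxynucleotides. With the covariate dnk and dUTPase lost their calls, and dUTPase also with the averaged arrays. The 12 repair and replication genes drawn by array were chosen among called genes, which favoured separation. In each of them the groups stayed apart, as they did in 49.1% of all genes.

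**Figure D2:**
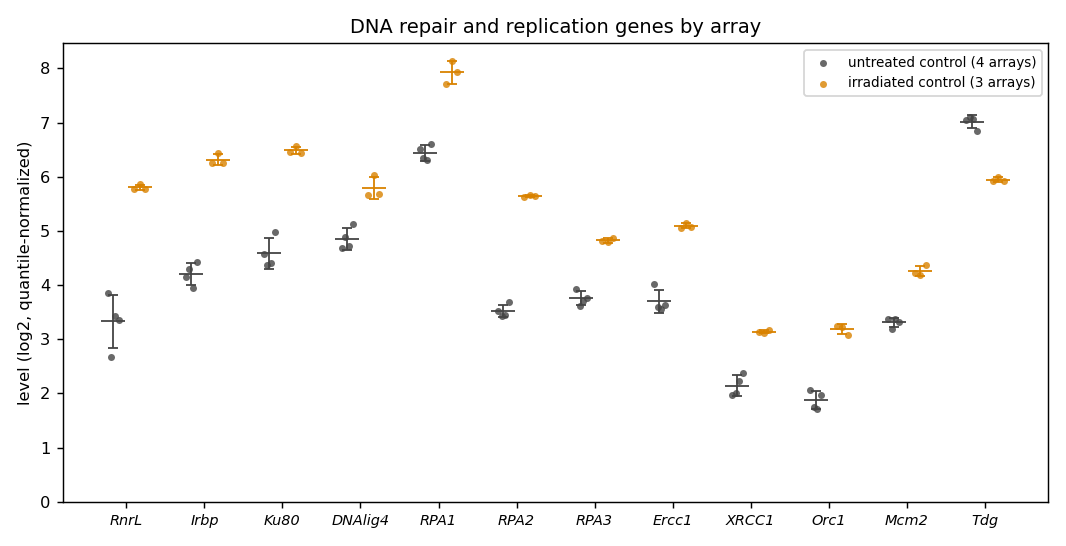
Levels (log2) of 12 DNA repair and replication genes on each control array, grey for the 4 untreated and orange for the 3 irradiated arrays, with mean and SD. All but Tdg are higher after irradiation, and in no gene do the groups overlap. The genes drawn were chosen among called ones, and 49.1% of all genes show no overlap.

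The 3 largest rises of all genes were those of delta glutathione S-transferases, cytosolic enzymes that conjugate glutathione to electrophiles. Of 11 measured members 10 were called higher and 1 lower, with a median of 2.01. GstD5 was at 5.17, 4.46, 5.30 and 5.10 on the untreated arrays and 10.20, 10.32 and 9.99 on the irradiated arrays, a 35.8-fold rise. GstD2 stood at 4.15, 3.79, 4.58 and 3.95 on the untreated arrays and 9.26, 9.66 and 8.88 on the irradiated arrays, a 35.5-fold rise. GstD4 went from 1.74, 1.74, 1.997 and 1.67 to 6.79, 7.11 and 6.19, a 30.0-fold rise. GstD10 followed with 2.32 ± 0.24 (SE, adjusted p = 9.79e-06), GstD6 with 2.24 ± 0.20 (SE, adjusted p = 2.72e-06) and GstD8 with 2.01 ± 0.17 (SE, adjusted p = 2.23e-06). The 10 raised members are neighbours in the genome, and no other run of adjacent measured genes that all changed at least 2-fold in the same direction was as long. Members are similar in sequence, and how far their probes also read transcripts of a neighbour was not tested. With the covariate 9 and with the averaged arrays 10 were called higher. Within the lower and the higher hybridization-control arrays the median of the list was 1.99 and 1.81.

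The epsilon class, which holds other detoxifying transferases, was less uniform. Of 13 members 9 were called higher and 1 lower, with a median of 0.55. GstE7 was at 6.91, 6.28, 6.99 and 6.01 on the untreated arrays and 9.67, 9.60 and 9.60 on the irradiated arrays and rose by 3.07 ± 0.29 (SE, adjusted p = 4.31e-06). GstE3 rose by 1.79 ± 0.28 (SE, adjusted p = 0.000241), GstE1 by 1.64 ± 0.18 (SE, adjusted p = 1.24e-05) and GstE6 by 1.18 ± 0.20 (SE, adjusted p = 0.000535). GstE4 was the exception, which stood at 4.47, 4.89, 4.93 and 4.85 on the untreated arrays and 2.93, 2.73 and 2.74 on the irradiated arrays and fell by 1.98 ± 0.34 (SE, adjusted p = 0.000507), which was not called with the covariate. With the covariate 5 of the 13 were higher and none lower, and with the averaged arrays 7 were higher and 1 lower. Of 12 transferases of other classes 1 was higher and 3 lower, a share of 33.3% near the 36.3% of all genes. With the covariate 2 of these were higher and 2 lower. GstT4, of the theta class, stood at 9.90, 10.08, 9.72 and 9.90 on the untreated arrays and 7.75, 7.81 and 8.09 on the irradiated arrays and fell 4.05-fold, or 2.02 ± 0.19 (SE, adjusted p = 4.56e-06) on the log2 scale. In glutathione synthesis, Gclm, the modifier subunit of the rate-limiting ligase, rose by 2.06 ± 0.19 (SE, adjusted p = 3.59e-06), and the thioredoxin reductase Trxr1 rose by 0.996 ± 0.15 (SE, adjusted p = 0.000171). Among 16 genes of glutathione synthesis, Nrf2 factors and antioxidant enzymes 5 were higher and 3 lower, and the number of lower genes was 1 without untreated control 4 and without irradiated control 1 or 2. With the covariate 3 and with the averaged arrays 4 were higher and none lower.

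**Figure D3:**
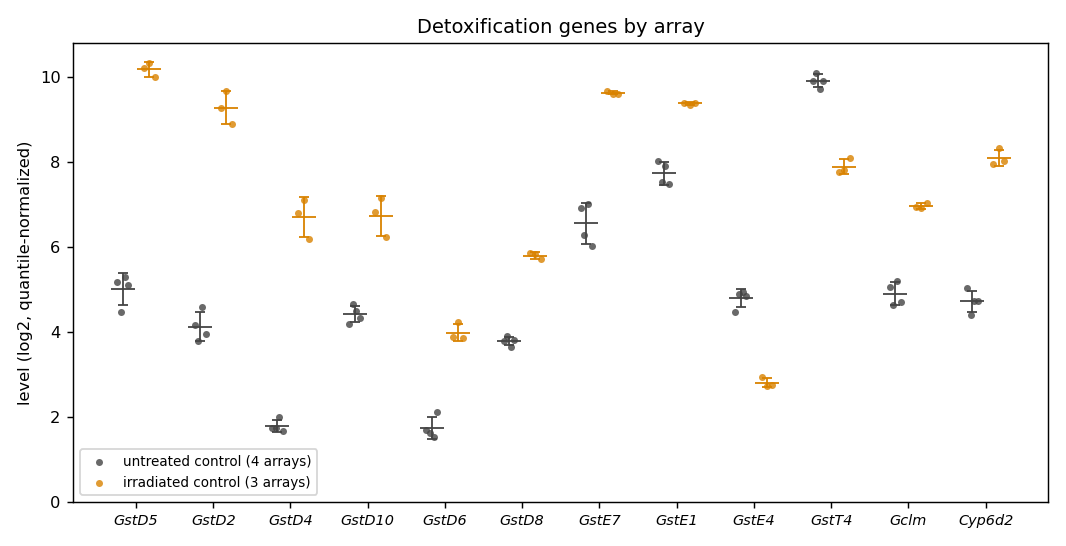
Levels (log2) of 12 detoxification genes on each control array, grey for untreated and orange for irradiated arrays, with mean and SD. GstE4 and GstT4 lie lower after irradiation and the other 10 genes lie higher.

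Cytochrome P450 and UDP-glycosyltransferase genes were called in both directions. Of 83 P450 genes, oxidases of hormones and toxins, 16 were higher and 21 lower, with a median of 0.01. That is 44.6% called, against 36.3% of all genes. Cyp6d2 was at 5.02, 4.40, 4.73 and 4.71 on the untreated arrays and 7.94, 8.31 and 8.004 on the irradiated arrays and rose 10.3-fold, or 3.37 ± 0.38 (SE, adjusted p = 1.89e-05) on the log2 scale. Cyp12c1, a mitochondrial P450, rose by 2.78 ± 0.38 (SE, adjusted p = 8.55e-05) and Cyp6d4 by 1.83 ± 0.22 (SE, adjusted p = 3.17e-05). Cyp4e3 stood at 10.55, 8.24, 10.46 and 8.67 on the untreated arrays and 6.67, 6.86 and 6.97 on the irradiated arrays and fell by 2.65 ± 0.46 (SE, adjusted p = 0.000544). The untreated values of Cyp4e3 were themselves uneven, with arrays 1 and 3 high, and its call was lost with the covariate. Cyp6t3 fell by 1.53 ± 0.22 (SE, adjusted p = 0.000139). Among 35 UDP-glycosyltransferases 11 were higher and 5 lower, 45.7% in all. Ugt302K1 was at 1.78, 1.60, 1.75 and 1.76 on the untreated arrays and 5.53, 5.38 and 4.75 on the irradiated arrays and rose by 3.50 ± 0.30 (SE, adjusted p = 2.18e-06). Ugt37A3 rose by 3.45 ± 0.74 (SE, adjusted p = 0.00235) and its relative Ugt37A2 by 2.23 ± 0.32 (SE, adjusted p = 0.00012), while Ugt303A1 fell by 1.67 ± 0.16 (SE, adjusted p = 4.11e-06). Ugt37A3 lost its call in both fits. With the covariate 14 P450 genes were higher and 5 lower, and 6 glycosyltransferases higher and 3 lower. With the averaged arrays the counts were 9 and 7 for P450 genes and 4 and 3 for glycosyltransferases. The efflux transporters Mdr49, a P-glycoprotein, and MRP rose by 1.34 ± 0.16 (SE, adjusted p = 2.69e-05) and 1.21 ± 0.13 (SE, adjusted p = 9.79e-06), within a list of 6 in which 3 were higher, 3 with the covariate and 2 with the averaged arrays.

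Some chaperone genes rose. The copies of Hsp70, the heat-inducible chaperone, share probe sets and could not be told apart, so they stand outside the list counts. Of 4 probe sets that carry symbols of Hsp70 copies alone, all were called higher, by 4.8001, 4.77, 4.41 and 0.55. The first of these stood at 3.14, 4.42, 8.88 and 3.89 on the untreated arrays and 9.91, 9.77 and 9.97 on the irradiated arrays (adjusted p = 0.00214). Untreated array 3 was the highest untreated array in all 4, which were picked out after their values were seen. With the covariate none of the 4 was called and with the averaged arrays 1. Probe sets of Hsp22 also carry the symbol of another gene and were not counted. Of 3 small heat shock genes 2 were higher. Hsp26 stood at 8.05, 7.77, 8.09 and 7.86 on the untreated arrays and 10.06, 9.87 and 10.36 on the irradiated arrays and rose by 2.15 ± 0.30 (SE, adjusted p = 8.78e-05), and Hsp27 rose by 1.06 ± 0.21 (SE, adjusted p = 0.00118). Among 8 genes of the Hsp70 class and its partners 4 were called, all higher. They included the inducible Hsp68 (2.18 ± 0.35 SE, adjusted p = 0.000293) and stv, a BAG cochaperone (1.40 ± 0.19 SE, adjusted p = 6.72e-05). Hsf, which encodes the factor that induces them, was at -0.17 ± 0.08 (SE, adjusted p = 0.122). In the endoplasmic reticulum list 4 of 10 were higher and 1 lower. The kinase PEK, which restrains translation when proteins misfold, rose by 1.39 ± 0.17 (SE, adjusted p = 3.22e-05), and Sil1, an exchange factor of the luminal Hsp70, by 1.13 ± 0.17 (SE, adjusted p = 0.000151). Hsp27 and Hsp68 lost their calls with the covariate, which left 1 small heat shock gene, 1 gene of the Hsp70 list and 2 of the endoplasmic reticulum list higher. With the averaged arrays each of the 3 lists had 2 higher genes.

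Stress signalling and immunity moved in part. Of 13 genes of the JNK pathway and its targets 6 were higher and 3 lower. Gadd45, a stress gene that activates JNK signalling, was at 4.43, 5.69, 4.94 and 6.13 on the untreated arrays and 7.52, 7.46 and 7.34 on the irradiated arrays and rose by 2.14 ± 0.33 (SE, adjusted p = 0.000236). The transcription factor genes Ets21C and Jra (Jun) rose by 1.29 ± 0.15 (SE, adjusted p = 2.14e-05) and 0.80 ± 0.12 (SE, adjusted p = 0.000136). Gadd45 was not called with the covariate, in which 2 genes of the list were higher, and 3 were with the averaged arrays. Among 8 bomanins, secreted peptides of the Toll response, 5 were higher and none lower, with a median of 0.83, and of 12 antimicrobial peptides 5 were higher. These are shares of 62.5% and 41.7% called, against 36.3% of all genes. BomBc3 rose by 2.04 ± 0.32 (SE, adjusted p = 0.000223), BomS2 by 1.12 ± 0.24 (SE, adjusted p = 0.00209) and the antifungal Drs by 1.44 ± 0.34 (SE, adjusted p = 0.0043). The count of antimicrobial peptides was 3 without irradiated control 3. With the covariate 2 bomanins and 1 antimicrobial peptide were called, and with the averaged arrays the same numbers, and BomS2 and Drs lost their calls in both fits. TotC, a secreted Turandot stress protein, was at 2.47, 4.39, 4.97 and 1.64 on the untreated arrays and 5.39, 8.52 and 9.87 on the irradiated arrays. Its irradiated arrays differed widely, with array 1 close to the untreated ones, and its rise of 4.56 ± 1.26 (SE, adjusted p = 0.0114) was not called without irradiated control 3 (adjusted p = 0.0683), nor in the other 2 fits.

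Within Toll signalling the ligand and the receptor went in opposite directions. The ligand gene spz was at 5.16, 5.17, 5.25 and 5.34 on the untreated arrays and 6.24, 6.61 and 6.61 on the irradiated arrays and rose by 1.26 ± 0.12 (SE, adjusted p = 4.62e-06). The receptor gene Tl stood at 6.47, 6.87, 6.65 and 6.44 on the untreated arrays and 4.99, 5.18 and 5.02 on the irradiated arrays and fell by 1.54 ± 0.14 (SE, adjusted p = 2.94e-06). A dimmer probe set of Tl differed by -0.03 (adjusted p = 0.891). Over 15 genes of Toll and Imd signalling 2 were higher and 4 lower, a share of 40% near the 36.3% of all genes. In either of the other fits 1 was higher and 1 lower, where 9.58% of all genes were called with the covariate and 9.81% with the averaged arrays. Of 11 genes of hemocytes and melanization 2 were called higher and 1 lower, a share of 27.3% that lies below the 36.3% of all genes. The gene eater, a phagocytic receptor, rose by 1.20 ± 0.21 (SE, adjusted p = 0.000644) and He (Hemese), a hemocyte surface protein, by 0.99 ± 0.11 (SE, adjusted p = 1.67e-05). The gene ush, a cofactor of GATA factors in blood cells, went from 4.33, 4.14, 4.17 and 4.34 to 2.87, 2.86 and 2.87 and fell by 1.38 ± 0.10 (SE, adjusted p = 7.74e-07). The 3 genes stayed called with the covariate and with the averaged arrays.

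In nutrient signalling, the genes of 2 insulin-like peptides were higher, while the receptor and some downstream genes were lower. Of 12 genes of insulin signalling and the starvation response 3 were called higher and 6 lower, with a median of -0.59. The higher genes encode secreted proteins. The insulin-like peptide gene Ilp5, expressed in brain neurosecretory cells, was at 2.80, 2.15, 2.39 and 2.42 on the untreated arrays and 4.51, 4.52 and 4.54 on the irradiated arrays and rose 4.24-fold, or 2.08 ± 0.19 (SE, adjusted p = 3.29e-06) on the log2 scale. Ilp2, of the same cells, rose by 0.86 ± 0.14 (SE, adjusted p = 0.000295) and ImpL2, an insulin-binding protein, by 0.81 ± 0.16 (SE, adjusted p = 0.00122). The lower genes act in the responding cell. The insulin receptor gene InR stood at 6.56, 8.26, 7.73 and 7.45 on the untreated arrays and 5.64, 5.63 and 5.65 on the irradiated arrays and fell by 1.86 ± 0.34 (SE, adjusted p = 0.000745). Untreated array 1 of InR lay lowest in its group, and the irradiated values lay close together. The receptor substrate chico fell by 1.14 ± 0.23 (SE, adjusted p = 0.00177) and the transcription factor foxo, which insulin holds out of the nucleus, by 1.24 ± 0.22 (SE, adjusted p = 0.000724). The triglyceride lipase gene bmm and the gluconeogenic Pepck2, both induced by fasting, fell by 1.61 ± 0.26 (SE, adjusted p = 0.000308) and 1.20 ± 0.25 (SE, adjusted p = 0.00198). With the covariate Ilp5 and Ilp2 were called and none of the 6 lower genes. With the averaged arrays the same 2 rose, and InR, foxo and bmm were the 3 lower genes.

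Autophagy genes were called in 1 direction. Of 20 measured members 9 were lower and none higher, with a median of -0.26. That is 45% called lower, against 17.8% of all genes. Atg9, the transmembrane carrier of membrane to the growing autophagosome, was at 7.08, 7.36, 6.93 and 7.55 on the untreated arrays and 5.97, 6.11 and 6.27 on the irradiated arrays and fell by 1.11 ± 0.17 (SE, adjusted p = 0.000159). Atg2, which transfers lipid at the same site, fell by 1.13 ± 0.20 (SE, adjusted p = 0.000566). Of the initiating kinase complex, Atg1 fell by 0.90 ± 0.24 (SE, adjusted p = 0.0104), Atg13 by 0.94 ± 0.11 (SE, adjusted p = 2.27e-05) and Atg101 by 1.04 ± 0.20 (SE, adjusted p = 0.00114). Atg18a fell by 0.95 ± 0.19 (SE, adjusted p = 0.00137). The conjugation genes Atg3, Atg5, Atg7, Atg10, Atg12 and Atg16 did not pass. With the covariate 4 genes were lower and with the averaged arrays 3. Atg1 and Atg18a lost their calls in both fits, Atg101 with the averaged arrays, and Atg1 also on the deposited scale (adjusted p = 0.0676). The carnitine palmitoyltransferase whd, which brings fatty acids into mitochondria, fell by 1.003 ± 0.14 (SE, adjusted p = 0.000101), while a dimmer probe set of it differed by 0.07 (adjusted p = 0.653).

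**Figure D4:**
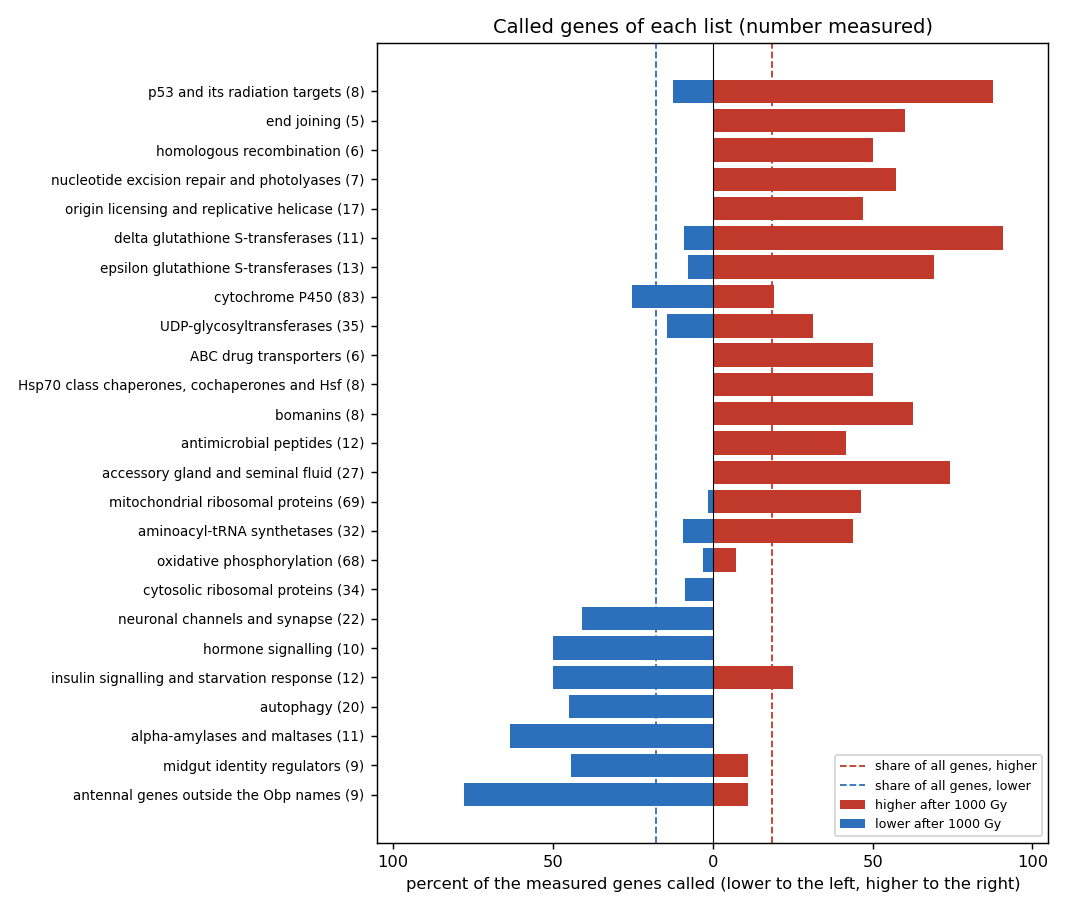
Share of the measured genes of 25 lists called higher (red, to the right) and lower (blue, to the left) after 1000 Gy, with the number measured in parentheses. Dashed lines mark the shares over all genes, 18.5% higher and 17.8% lower.

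Most genes of digestive carbohydrases were lower. Of 11 alpha-amylases and maltases 7 were called lower and none higher, with a median of -0.94. The maltase gene Mal-A6 was at 10.53, 10.45, 10.34 and 10.54 on the untreated arrays and 9.06, 8.82 and 9.20 on the irradiated arrays and fell by 1.44 ± 0.17 (SE, adjusted p = 2.29e-05). Its neighbours Mal-A7 and Mal-A8 fell by 1.06 ± 0.19 (SE, adjusted p = 0.000661) and 1.05 ± 0.17 (SE, adjusted p = 0.000332). Mal-A1 stood at 11.59, 11.52, 11.35 and 11.59 on the untreated arrays and 10.57, 10.53 and 10.55 on the irradiated arrays and fell by 0.96 ± 0.13 (SE, adjusted p = 6.28e-05), and Mal-A4 and Mal-A3 fell by 1.06 ± 0.14 (SE, adjusted p = 6.16e-05) and 0.94 ± 0.16 (SE, adjusted p = 0.000401). The mean level of the 11 genes was 8.34 to 8.60 on the untreated and 7.75 to 7.85 on the irradiated arrays. With the covariate 3 were lower and with the averaged arrays 6, and Mal-A3, Mal-A7 and Mal-A8 were not called with the covariate. The digestive serine proteases and lysozymes did not follow, with 6 of 30 higher and 3 lower (1 lower without untreated control 2 and without irradiated control 1 or 3). That is 30% called, below the 36.3% of all genes. Their mean level was 7.16 to 7.26 before and 7.35 to 7.43 after irradiation. With the covariate 2 were higher and 1 lower, and with the averaged arrays 4 and 1. The serine protease Ser8 nevertheless fell by 2.55 ± 0.23 (SE, adjusted p = 3.25e-06), and Ser7 rose by 0.95 ± 0.14 (SE, adjusted p = 0.000144).

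Of 9 regulators of midgut cell identity 4 were lower and 1 higher. GATAe, which directs endodermal genes in the adult gut, stood at 6.002, 5.64, 5.33 and 5.88 on the untreated arrays and 3.61, 3.59 and 3.82 on the irradiated arrays and fell by 2.04 ± 0.18 (SE, adjusted p = 2.66e-06). The homeobox genes exex and Ptx1, which mark regions of the midgut, fell by 1.93 ± 0.16 (SE, adjusted p = 1.63e-06) and 1.08 ± 0.15 (SE, adjusted p = 0.000105). The POU factor nub, which is expressed in enterocytes, rose by 1.30 ± 0.16 (SE, adjusted p = 3.14e-05). Dimmer probe sets of Ptx1 and nub did not follow, with 0.20 (adjusted p = 0.139) for Ptx1 and 0.10 (adjusted p = 0.405) and -0.08 (adjusted p = 0.643) for nub. Ptx1 lost its call with the covariate, which left 2 of the 9 lower and 1 higher, and with the averaged arrays 3 were lower and 1 higher.

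Genes of the antenna had the lowest median of all lists. Outside the odorant-binding proteins 7 of 9 antennal genes were lower and 1 higher, with a median of -2.02. Their mean level was 5.15 to 5.60 on the untreated and 3.31 to 3.59 on the irradiated arrays. The odorant-binding protein gene Obp83b stood at 6.35, 7.57, 7.85 and 7.78 on the untreated arrays and 3.88, 2.54 and 2.14 on the irradiated arrays, a 23.1-fold fall. The pheromone-binding gene lush was at 3.97, 4.92, 5.32 and 4.84 on the untreated arrays and 2.66, 1.90 and 1.91 on the irradiated arrays and fell by 2.60 ± 0.47 (SE, adjusted p = 0.000725). Orco, the coreceptor of nearly all odorant receptors, was at 3.92, 4.23, 4.46 and 4.72 on the untreated arrays and 2.33, 2.32 and 2.28 on the irradiated arrays and fell 4.06-fold, or 2.02 ± 0.31 (SE, adjusted p = 0.000177) on the log2 scale. Obp84a fell by 2.16 ± 0.36 (SE, adjusted p = 0.000384), and Obp19a, a5, a10 and Os-C fell by 3.94, 3.88, 3.47 and 3.54. Antdh, an antennal dehydrogenase, fell by 1.43 ± 0.27 (SE, adjusted p = 0.00102) and Snmp1, a sensory neuron membrane protein for pheromones, by 0.77 ± 0.17 (SE, adjusted p = 0.00329). AANATL3 and Obp69a fell by 3.21 and 2.68. Over all 48 odorant-binding protein genes 15 were higher and 7 lower, with the covariate 5 and 4, and with the averaged arrays 4 and 4. Members of this family are also expressed outside the antenna. Obp99b, listed with the secreted fat body genes, rose by 2.02 ± 0.55 (SE, adjusted p = 0.0105). With the covariate 4 and with the averaged arrays 5 of the 9 antennal genes were lower. Antdh, Snmp1, Obp69a and Obp99b lost their calls in both fits and AANATL3 with the covariate. Most odorant, ionotropic and gustatory receptors lay below the 40th percentile of level (56 of 57, 52 of 53 and 54 of 56). Of the odorant receptors 8 were called higher and 12 lower, and of the ionotropic receptors 3 and 12. Gustatory receptors had 12 higher and 4 lower, with a median of -0.02. The shares called were 35.1%, 28.3% and 28.6%, none above the 36.3% of all genes. The largest rise among the gustatory receptors was that of Gr66a, a receptor of bitter taste neurons, by 1.03 ± 0.11 (SE, adjusted p = 1.2e-05).

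Of 22 neuronal channel and synaptic genes 9 were called lower and none higher, with a median of -0.38, and 13 did not pass. The potassium channel gene Shab was at 3.999, 3.98, 4.12 and 3.94 on the untreated arrays and 2.99, 2.97 and 3.003 on the irradiated arrays and fell by 1.02 ± 0.10 (SE, adjusted p = 6.8e-06). The sodium channel gene para fell by 0.89 ± 0.12 (SE, adjusted p = 7.15e-05) and the serotonin transporter SerT by 0.67 ± 0.13 (SE, adjusted p = 0.00108). The potassium channel gene Sh fell by 0.88 ± 0.16 (SE, adjusted p = 0.000724), and 3 of its 6 dimmer probe sets were called lower too, by -0.52 (adjusted p = 0.0441), -0.82 (adjusted p = 0.000464) and -0.88 (adjusted p = 0.00478). Of the other 3, 1 was called higher (0.45, adjusted p = 0.0341), and -0.63 (adjusted p = 0.0886) and -0.15 (adjusted p = 0.274) were not called. With the covariate 2 and with the averaged arrays 4 genes were lower, and SerT was not called in either and Sh not with the covariate. Of 16 neuropeptide genes 5 were called, all higher, a share of 31.2% that lies below the 36.3% of all genes. CCHa1 and CCHa2, peptides made in gut endocrine cells and the brain, rose by 0.87 ± 0.12 (SE, adjusted p = 7.88e-05) and 0.84 ± 0.22 (SE, adjusted p = 0.00788). SIFa, a brain peptide, rose by 0.64 ± 0.13 (SE, adjusted p = 0.002) and Crz (corazonin) by 0.60 ± 0.10 (SE, adjusted p = 0.000553). CCHa2 and SIFa were not called in either fit and Crz not with the covariate, which left 1 of the 16 called, while the averaged arrays left 2. Hr38, a nuclear receptor gene induced by neuronal activity, stood at 4.12, 4.82, 4.81 and 4.33 on the untreated arrays and 2.62, 2.60 and 2.61 on the irradiated arrays and fell by 1.91 ± 0.25 (SE, adjusted p = 5.81e-05), whereas a dimmer probe set of it differed by 0.03 (adjusted p = 0.871). CG13868, listed with it, rose by 1.82 ± 0.21 (SE, adjusted p = 2.25e-05). Of 16 phototransduction genes 1 was called higher and 5 lower, a share of 37.5% that lies near the 36.3% of all genes. Among them the phosphatase gene rdgC fell by 0.60 ± 0.08 (SE, adjusted p = 0.000104), with a second probe set at 0.02 (adjusted p = 0.948).

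Of 10 genes of ecdysone and juvenile hormone signalling 5 were called lower and none higher, and the other 5 did not pass. The juvenile hormone receptor gene gce was at 3.998, 4.77, 4.48 and 4.38 on the untreated arrays and 2.76, 3.003 and 2.96 on the irradiated arrays and fell by 1.501 ± 0.24 (SE, adjusted p = 0.000249). Its target Kr-h1 fell by 1.16 ± 0.17 (SE, adjusted p = 0.000118), the ecdysone receptor gene EcR by 1.15 ± 0.23 (SE, adjusted p = 0.00157) and the ecdysone-induced transporter E23 by 1.07 ± 0.18 (SE, adjusted p = 0.000358). Jhedup, a relative of the juvenile hormone esterase, fell by 3.31 ± 0.79 (SE, adjusted p = 0.00465). A dimmer probe set of gce differed by -0.51 (adjusted p = 0.0522). With the covariate 2 and with the averaged arrays 3 of the 10 were lower. The calls of gce with the covariate and of EcR and Jhedup in both fits were lost.

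**Figure D5:**
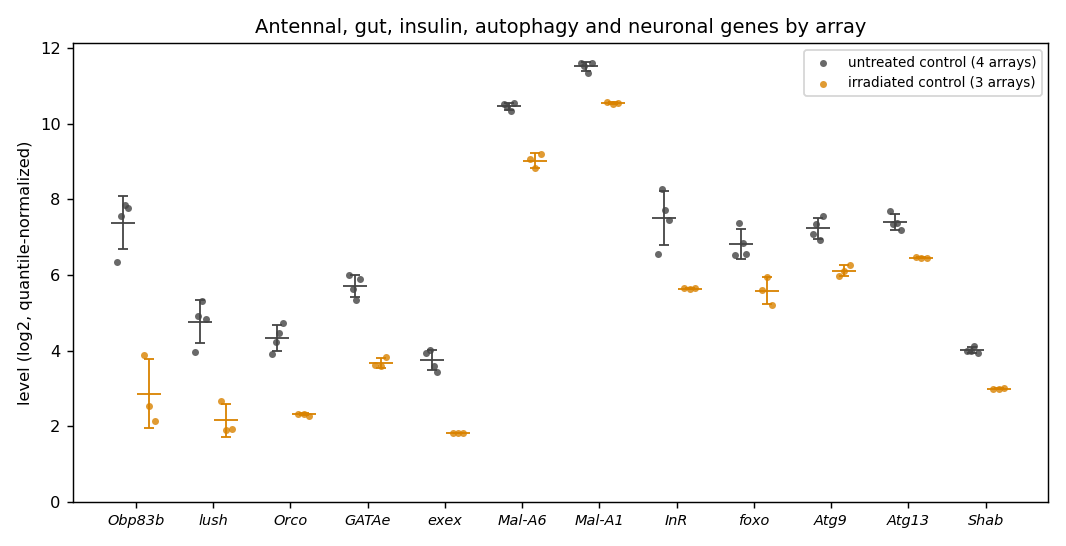
Levels (log2) of 12 antennal, gut, insulin pathway, autophagy and neuronal genes on each control array, grey for untreated and orange for irradiated arrays, with mean and SD. In each gene the 3 irradiated arrays lie below the 4 untreated ones. The genes drawn were chosen among called ones, and 49.1% of all genes show no overlap in either direction.

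Male reproductive secretions were higher. Of 27 accessory gland and seminal fluid genes 20 were called higher and none lower, with a median of 0.64, and all 5 genes of the ejaculatory bulb and duct were higher. Sfp24Bb stood at 8.58, 8.54, 8.54 and 8.10 on the untreated arrays and 9.78, 9.46 and 9.66 on the irradiated arrays and rose by 1.19 ± 0.16 (SE, adjusted p = 7.79e-05). Acp53C14c, encoding an accessory gland peptide, and the seminal protease gene Sems rose by 1.20 ± 0.29 (SE, adjusted p = 0.00536) and 1.04 ± 0.17 (SE, adjusted p = 0.000367). Dup99B, a ductus ejaculatorius peptide that alters the behaviour of mated females, rose by 0.96 ± 0.17 (SE, adjusted p = 0.000567). The mean level of the 27 genes was 7.94 to 8.65 on the untreated and 9.06 to 9.15 on the irradiated arrays. With the covariate 7 and with the averaged arrays 2 of the 27 were higher, the latter near the share of all genes, and Acp53C14c was not called with the averaged arrays. Of the 5 bulb and duct genes 3 were called without irradiated control 1, 2 with the covariate and 1 with the averaged arrays. Testis genes had 6 of 41 higher and 5 lower (3 lower without untreated control 4 and 2 without irradiated control 1). That is 26.8% called, below the 36.3% of all genes. Their mean level was 7.56 to 7.67 before and 7.63 to 7.67 after irradiation. With the covariate 2 testis genes were higher and none lower, where 9.58% of all genes were called. Fat body secreted and storage genes had 7 of 16 higher and 1 lower, with the covariate 3 were higher, and with the averaged arrays none was called. The fat body gene fit, known for its higher expression in females, rose by 3.49 ± 0.67 (SE, adjusted p = 0.00103), which was not called in either fit.

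Housekeeping groups changed little or within small ranges. Of 34 cytosolic ribosomal protein genes 3 were called, all lower, and of 68 oxidative phosphorylation genes 5 were higher and 2 lower, both well under the share over all genes. The median of the ribosomal genes lay above that of all genes on the deposited values and below it after quantile normalization. Centring on the median or on ribosomal protein genes shifts both medians alike and cannot change their order. Mitochondrial ribosomal proteins had 32 of 69 higher and 1 lower with a median of 0.28, and aminoacyl-tRNA synthetases 14 of 32 higher and 3 lower with a median of 0.21. The 3 were 1 without irradiated control 2 or 3. AlaRS, the alanine synthetase, rose by 0.91 ± 0.17 (SE, adjusted p = 0.000937). With the covariate 1 and 0 genes of these lists were higher, and with the averaged arrays 5 and 0, so AlaRS was not called in either. Muscle genes had 2 of 16 lower, and cuticle proteins 26 of 104 higher and 6 lower. These are shares of 12.5% and 30.8%, below the 36.3% of all genes. In both other fits no cytosolic ribosomal protein or muscle gene was called. With the covariate 2 oxidative phosphorylation genes were higher, and 11 cuticle proteins higher and 1 lower. With the averaged arrays these numbers were 1, 5 and 1.

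The largest changes outside these lists were in genes with little annotation. CG5550 rose by 4.50 ± 0.30 (SE, adjusted p = 3.45e-07), CG16898 by 4.19 ± 0.34 (SE, adjusted p = 1.11e-06) and CG33468 by 3.73 ± 0.35 (SE, adjusted p = 3.66e-06). CG16898 stood at 7.48, 6.20, 7.03 and 6.42 on the untreated arrays and 10.91, 11.10 and 10.91 on the irradiated arrays. CG42365, CG2065, CG7142 and CG15155 rose by 3.50, 3.49, 3.39 and 3.31. CG7142 had the smallest standard error of these, with 3.67, 3.63, 3.73 and 3.28 on the untreated arrays and 7.001, 6.96 and 6.94 on the irradiated arrays. Among falls, CG15263 changed by -2.59 ± 0.29 (SE, adjusted p = 1.61e-05), the alkaline phosphatase Alp9 by -2.55 ± 0.30 (SE, adjusted p = 2.79e-05) and GIIIspla2, a secreted phospholipase, by -2.35 ± 0.29 (SE, adjusted p = 3.97e-05). CG7763 was at 3.09, 6.22, 5.62 and 5.73 on the untreated arrays and 2.69, 2.64 and 2.64 on the irradiated arrays, where untreated array 1 lay near the irradiated arrays. It fell by 2.50 ± 0.74 (SE, adjusted p = 0.0163), which was not called in either of the other fits.

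Whether the control response differed from that of the Dsup lines was tested as an interaction on all 15 arrays. It was called in 879 of 11982 genes (7.34%) and in 1704 of 18769 probe sets (9.08%). The number of probe sets was 886, 866 and 959 without irradiated control 1, 2 and 3, 956 with the 3' minus 5' covariate, 955 with the Dsup lines and control replicates as blocks and 137 when probe sets below the 40th percentile of level were left out before the fit. Of the 630 genes changed at least 2-fold in control flies 197 had a called difference, and in all 197 the control change was the larger, though these genes were chosen by the size of the control change. In GstD5 the Dsup lines changed by 1.59, a difference of 3.58 ± 0.75 (SE, adjusted p = 0.00908). For RPA3 the Dsup change was 0.24 and the difference 0.83 ± 0.14 (SE, adjusted p = 0.00236). For Orc1 the Dsup lines stood at -0.04, with a difference of 1.35 ± 0.19 (SE, adjusted p = 0.000928). Ercc1 changed by 0.35 in the Dsup lines, a difference of 1.05 ± 0.18 (SE, adjusted p = 0.00283), and Ugt37A2 by 0.02, a difference of 2.21 ± 0.44 (SE, adjusted p = 0.00642). In contrast, the difference was not called for Corp (0.27 ± 0.21 SE, adjusted p = 0.474), p53 (0.24 ± 0.18 SE, adjusted p = 0.461), Orco (-0.09 ± 0.42 SE, adjusted p = 0.929), GATAe (-0.17 ± 0.24 SE, adjusted p = 0.715), InR (-0.10 ± 0.46 SE, adjusted p = 0.922) or CG7142 (0.38 ± 0.25 SE, adjusted p = 0.388). The smallest interaction p-values upwards belonged to CG15375, Ugt49B2, CG15725, Drsl2 and CG9752, with control changes of 0.65, 0.65, 0.54, 0.86 and 1.28 against Dsup changes of -0.53, -0.57, -0.47, -0.58 and -0.45. Downwards they belonged to asRNA:CR43476, tsh, CG33639, ppk26 and dmrt93B, with control changes of -0.19, -0.98, -0.50, -0.47 and -0.43 against Dsup changes of 0.82, -0.01, 0.76, 0.48 and 0.61. The first of these was not called in the control response (adjusted p = 0.0539), and CG33639, ppk26 and dmrt93B lost that call in both fits. Most of these 10 genes lie at low levels, and a second probe set of CG33639 differed by 0.03 in control flies (adjusted p = 0.859).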

How the data were processed

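Expression was measured on 15 arrays, and the 7 control arrays are the subject here. The deposited values are taken as log2 levels of probe sets from their range, and how the authors summarised and normalized the probes is not given in the sources used here. Per the labels' protocols, total RNA was turned into biotin-labelled cRNA by a kit that primes at the 3' end. No intensities or detection calls were used, and the number of arrays limits the precision.

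The 183 AFFX probe sets were left out and the remaining 18769 were quantile-normalized over 15 arrays. A limma 3.58.1 model (R 4.3.3) with 4 group means and plain empirical Bayes moderation was fitted to all arrays, so that the groups share 1 estimate of the spread. Tests were two-sided and adjusted by Benjamini-Hochberg over all probe sets. The code was tested on simulated data. Exactly 1 gene symbol was carried by 13647 probe sets, several by 402 and none by 4720. A gene is its probe set with the highest mean. Neighbouring genes were taken from RefSeq's Release 6 annotation. No genome build is stated for the probe sets, so coordinates are left out, and no sequences were used here.

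Named are the 15 largest rises and the 15 largest falls among called genes without overlap, members of gene lists (the largest called changes, then members whose role defines the list) and the 5 smallest interaction p-values in each direction. The members, the gene lists and these rules were chosen with earlier results of these data known. Lists are described by counts and medians. Control arrays were not treated as paired by replicate number. Deviations of same-numbered arrays correlated at -0.14, 0.25 and -0.16, and so few pairs cannot decide whether the numbers pair the samples. The averaging of irradiated arrays and the split by hybridization controls were added after seeing the data. The p-values rest on the spread within the groups of all 15 arrays, which includes differences between the Dsup lines, and not on the control pools alone.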

Additional observations from a re-analysis of the deposited data

Results flagged for a closer look

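In 11 of 161 named genes 1 of the 4 untreated control arrays lay apart from the other 3 by Dixon's test at the 95% level, and about 1 in 20 groups is marked by chance. On untreated array 1 these were a5 at 5.77, Ercc1 at 4.02, Mal-A4 at 9.33, Mal-A8 at 9.22, Ser7 at 6.51 and rdgC at 6.11. On untreated array 2 they were Ugt302K1 at 1.60, Alp9 at 6.94 and dnk at 4.40, and on untreated array 4 Blm at 1.88 and Sfp24Bb at 8.10. The irradiated group has 3 arrays and was not tested in this way.

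The radiation response of control flies differed from that of the Dsup lines, by the interaction term of the limma fit at an adjusted p below 0.05, in 61 of the named genes. The values are the log2 response of control flies minus that of the Dsup lines. Among repair, replication and chaperone genes the difference was 1.10 for Ku80, 0.92 for Irbp18, 0.61 for Claspin, 1.05 for RPA2, 0.92 for RPA1, 0.83 for RPA3, 1.05 for Ercc1, 0.51 for pic, 0.74 for DNAlig1, 0.82 for PolZ1, -0.59 for mus81, 1.35 for Orc1, 0.80 for Mcm2, 0.40 for Mcm3, 1.64 for RnrL, 0.72 for Ts, 1.70 for Hsp26, 0.97 for Hsp27, 1.76 for Hsp68, 0.88 for PEK and 1.08 for Sil1. Among detoxification genes it was 3.58 for GstD5, 3.07 for GstD2, 2.28 for GstD4, 1.53 for GstD10, 1.34 for GstD6, 0.99 for GstD8, 1.05 for GstE1, -1.26 for GstT4, 2.28 for Cyp6d2, 2.68 for Ugt302K1, 2.21 for Ugt37A2, 0.75 for Mdr49 and 0.97 for MRP. Among signalling, immune, gut and neuronal genes it was 0.94 for Ets21C, 0.72 for spz, -0.68 for Tl, 1.08 for Ilp5, -0.90 for Atg9, -0.80 for whd, -0.82 for Mal-A6, -0.88 for Mal-A8, -0.61 for Mal-A1, 0.82 for nub, 0.59 for Gr66a and -0.76 for Shab. Among the other genes with large changes it was 2.20 for CG5550, 1.73 for CG16898, 1.74 for CG42365, 1.53 for CG15155 and -1.46 for CG15263. Among the genes chosen for the smallest interaction p-values it was 1.18 for CG15375, 1.22 for Ugt49B2, 1.003 for CG15725, 1.44 for Drsl2, 1.73 for CG9752, -1.01 for asRNA:CR43476, -0.97 for tsh, -1.25 for CG33639, -0.95 for ppk26 and -1.03 for dmrt93B. The control arrays share 1 strain label and the Dsup arrays come from 4 lines, so strain background and transgene cannot be told apart. Of these 61 differences 34 kept the call under every array left out, and the fewest, 36, were kept without irradiated control 1. With the 3' minus 5' covariate 30 were kept, with the replicate block 46, and after removal of low probe sets 14 of the 43 tested. None changed sign in any of these fits, though all 61 were chosen because they were called.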

How the results depend on the processing

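The settings of the report gave 6384 called probe sets (3177 up, 3207 down), 793 of them at least 2-fold, and 1704 for the difference from the Dsup lines. On the deposited values 7862 were higher, 1435 lower and 4298 different from the Dsup lines. Centring on ribosomal protein genes gave 2053 higher and 4995 lower, and centring on the median 3881 and 2814. The balance of higher and lower calls thus depended on the scaling. Removing probe sets below the 40th percentile left 4055 called, 1977 higher and 2078 lower, with 137 for the difference. With the 3' minus 5' covariate 1686 were called, 863 higher and 823 lower, with 956 for the difference. With irradiated arrays averaged to 1 sample, chosen after seeing the data, 1661 were called, 858 higher and 803 lower. The spread taken from the other 12 arrays gave 972 for the difference. The replicate block gave 955 for the difference and 6415 for the control response; it paired Dsup lines truly but control arrays only by number. Leaving out 1 array gave 4616 to 6625 called and 866 to 1887 for the difference, the latter 886, 866 and 959 without irradiated control 1, 2 and 3. After the filter fewer genes were tested, and 36% of them were called in the control response, against 36.3% before. The cause of the lower count for the difference was not tested.

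Of 154 called named genes 153 kept the call under every array left out. Many were named for their large called changes, so this count was favoured in advance. Over all genes 36.3% were called with all arrays, and 26.6%, 27.3% and 27.5% without irradiated control 1, 2 and 3. The filter at the 40th percentile left 26 of the 154 untested. Of the 128 tested under all settings 82 kept the call in each. The covariate ended 50 calls and the averaging 30. No called named gene changed direction under any alternative that was run, which the choice of these genes also favoured.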
